A study of Mus musculus with 8 samples.

Results

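The genes described here encode actin and the proteins that build, store and take apart actin filaments. They are 10 of the 23427 entries in the deposited expression table, matched by their gene symbols: Actb, Actg1, Pfn1, Arpc2, Arpc3, Wasf1, Gsn, Cfl1, Cfl2 and Tmsb4x. All 10 were found, each as 1 entry, and all 10 passed the filter on low values.

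Primary mouse oligodendrocyte precursor cells (OPCs), the progenitors of the myelin-forming oligodendrocytes (OLs), were profiled by mRNA sequencing during differentiation in culture. All cells were WT, of strain C57BL/6J, and came from cortices of pups at postnatal day 7. Day 0 cells were OPCs before differentiation, and Day 1, Day 2 and Day 3 cells had spent that many days without growth factors and with the thyroid hormone T3. Each day had 2 libraries, described in the methods as independent replicates, which gave 8 libraries in 4 groups. Whether libraries with the same replicate number on different days came from the same preparation is not given in the sources used here. Statements by replicate match libraries by that number. The cells of 3 pups were pooled in a preparation and selected by their binding to an antibody against PDGFRα, so each library is a bulk average over every cell that was captured and grew. The labels and the methods name different culture media and RNA kits. Levels are given as FPKM, which divides the fragments of a gene by its length in kilobases and by the mapped fragments of the library, so that levels can be set side by side between genes.

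Actin exists as free monomers and as filaments, and cells move and change shape by shifting actin from one state to the other. Filaments grow when the WAVE complex turns on the Arp2/3 complex, which starts new branches, while profilin delivers monomers to growing ends. Gelsolin and the cofilins cut and dismantle filaments, and thymosin beta 4 holds monomers in reserve. In oligodendrocytes, actin assembly is known to drive the extension of processes, and disassembly is known to accompany the wrapping of myelin around the axon.

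The cells carried the markers that their labels imply. The 5 OPC markers (Pdgfra, Cspg4, Gpr17, Ptprz1 and Lhfpl3) summed to 1167 and 1233 FPKM on Day 0, in replicates 1 and 2, and to 389 and 229 on Day 3. Of the OL markers, Mbp, which encodes myelin basic protein, was at 65.2 and 82.2 FPKM on Day 0 and at 8753 and 11945 on Day 3. All 5 OPC markers reached 1 FPKM in some library.

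Markers of astrocytes separated the replicates. The 6 astrocyte markers (Gfap, Aqp4, Aldh1l1, Slc1a3, Gja1 and Aldoc) all reached 1 FPKM, and their sum in replicate 1 was 107, 160, 123 and 136 FPKM on Day 0 to Day 3. In replicate 2 it was 337, 512, 627 and 918 FPKM. Gfap, which had the highest mean over the 8 libraries, was at 14.7, 30.4, 27.3 and 45.5 FPKM in replicate 1 and at 154, 317, 409 and 603 in replicate 2. In replicate 1 Aldoc was above it, at 57.5, 116, 80.6 and 68.9 FPKM. In the sum and in Gfap, replicate 2 was above replicate 1 on every day, with the largest difference in FPKM on Day 3.

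Markers of other cell types were low, apart from the neuronal markers Tubb3 and, on Day 0, Snap25. Of the 5 microglial markers, Aif1, Cx3cr1, Csf1r and Tmem119 were listed at 0 in every library, and P2ry12 reached at most 2.51 FPKM. The 4 endothelial markers (Cldn5, Pecam1, Flt1 and Kdr) summed to at most 3.31 FPKM, mostly Kdr, with 1 of them at 0 throughout. The 4 mural markers (Rgs5, Pdgfrb, Kcnj8 and Abcc9) summed to at most 0.439 FPKM, with 1 at 0 throughout, and the 4 fibroblast and meningeal markers (Col1a1, Col1a2, Dcn and Lum) to at most 0.959, with 2 at 0 throughout. Of the 5 neuronal markers, Rbfox3 and Stmn2 stayed under 1 FPKM, while Tubb3 alone was at 60.2 and 20.8 FPKM on Day 0 and at 231 and 113 on Day 3. The remaining 2 went the other way, Snap25 from 2.15 and 8.46 FPKM on Day 0 to 0 and 1.48 on Day 3, and Syt1 from a mean of 1.89 to 1.04. The sum of the 5 on Day 3 was 233 and 115 FPKM. In bulk RNA, fewer cells of a type and less RNA per cell cannot be told apart, and this holds for every change given here.

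The 10 genes spanned a wide range of levels. Their FPKM summed to 1.61% and 1.60% of the library total at Day 0, in replicates 1 and 2, 1.60% and 2.23% at Day 1, 1.68% and 1.69% at Day 2, and 1.29% and 1.22% at Day 3. By mean FPKM over the 8 libraries, Actb ranked 5 in the whole table, Cfl1 11, Actg1 13 and Tmsb4x 38. Pfn1 ranked 164, Arpc3 453, Arpc2 625, Wasf1 720, Cfl2 784 and Gsn 1435. On Day 0 the order from highest to lowest was Actb, Cfl1, Actg1, Tmsb4x, Pfn1, Arpc3, Arpc2, Wasf1, Cfl2 and Gsn, and the replicate values of neighbours overlapped for Wasf1 and Cfl2 only. On Day 3 Gsn had moved to place 6 and Wasf1 to place 10, and replicate values overlapped between Actb and Cfl1, between Actg1 and Tmsb4x, and along the run from Gsn through Arpc3 and Arpc2 to Cfl2.

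**Figure D1:**
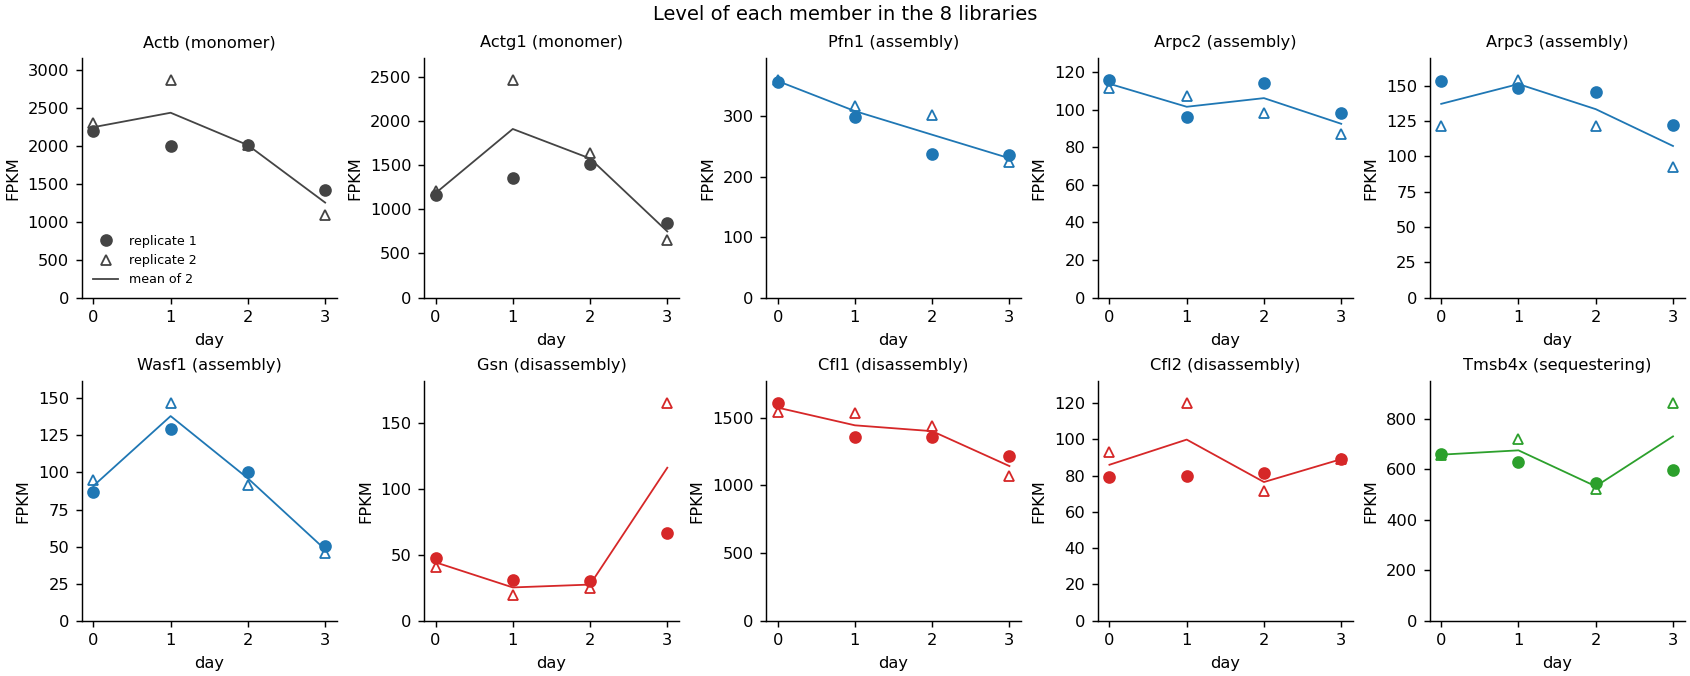
FPKM of the 10 members (vertical axes, from 0) against the day of differentiation (horizontal axes). Filled circles are replicate 1, open triangles are replicate 2, and lines join the means of the 2 replicates. Wasf1 was highest on Day 1 and lowest on Day 3, and the Day 3 replicates of Gsn lay apart at 67.0 and 165 FPKM.

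The comparison of Day 3 with Day 0 asks how the progenitor and the differentiated culture differ. Changes were tested with limma on log2(FPKM + 1), so a log2 fold change understates the change of genes at low levels, and p-values were Benjamini-Hochberg adjusted over the 12208 genes tested. A gene was called at an adjusted p under 0.05. Across all genes 26.3% were called lower on Day 3 (3207 genes) and 12% higher (1460 genes). Of the 10 members, 4 were called lower (Wasf1, Pfn1, Actb and Cfl1), 1 was called higher (Gsn) and 5 were not called. With 26.3% of all genes lower, 4 of 10 members says little about these genes as a group. Without Day 0 replicate 1, 1757 genes and 1 member were lower, and without Day 0 replicate 2, 1729 genes and 1 member, with 972 genes higher. Without Day 3 replicate 2, 2 members were lower. No member was called higher by limma without either Day 0 library, either Day 2 library or Day 3 replicate 2, while with all libraries 1 (Gsn) was higher at an unadjusted p under 0.05.

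The scale of the libraries bears on these calls. The median log2 fold change of all genes tested was -0.31 from Day 0 to Day 3, and with median ratio scaling it was -0.06. With that scaling 2142 genes were lower and 2054 higher, so 49.0% of called genes were higher instead of 31.3%. Equal sum scaling gave 2533 lower and 1745 higher (40.8%), and quantile normalization 2189 and 2075 (48.7%). Changes of the members from Day 0 to Day 3 are therefore also given relative to the median change. The median of the 10 members was -0.41, or -0.12 with median ratio scaling, where 1 member (Wasf1) was called lower.

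Actb and Actg1 encode the cytoplasmic actins, beta and gamma, which form the monomer pool. Their coding sequences share 997 of 1125 bases (88.6%). The opening 60 coding bases of each are shown to make clear how alike the messages of the 2 genes are, with the 9 bases that differ between them in capitals (GENCODE M21 transcripts, GRCm38).
Actb: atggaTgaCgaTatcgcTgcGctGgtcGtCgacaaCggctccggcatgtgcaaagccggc
Actg1: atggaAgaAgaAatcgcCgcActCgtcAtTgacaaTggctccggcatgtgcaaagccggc
Actb lies on chromosome 5 (142903115 to 142906754, minus strand) and Actg1 on chromosome 11 (120345690 to 120348542, minus strand). Of the 75-base stretches of the Actg1 transcript, 54.5% occur exactly in transcripts of 10 other annotated genes, Gm12715 sharing the most, and for Actb the share is 2.6%. How fragments that match several copies were assigned is not given in the sources used here, so the level of Actg1 is the less certain of the 2.

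Actb FPKM was 2195 and 2296 at Day 0, 2002 and 2869 at Day 1, 2007 and 2011 at Day 2, and 1421 and 1083 at Day 3. Both Day 3 libraries lay below all 6 earlier ones, and the highest value was in replicate 2 of Day 1. From Day 0 to Day 3, Actb fell by 0.85 on the log2 scale (SE 0.22, limma adjusted p = 0.0152), which was -0.54 relative to the median change, and was lower in 2 of 2 replicates. With quantile normalization the change was -1.82 (adjusted p = 0.000188). The call was lost with median ratio scaling (-0.57, adjusted p = 0.0753) and without either Day 0 library or Day 3 replicate 2 (adjusted p 0.0690, 0.0845 and 0.0779). Actb is also the gene to which RT-qPCR values of the study were set, and its highest library here was 2.65 times its lowest.

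Actg1 FPKM was 1159 and 1207 at Day 0, 1354 and 2466 at Day 1, 1513 and 1639 at Day 2, and 842 and 658 at Day 3. The 4 libraries of Day 1 and Day 2 were the highest and both Day 3 libraries the lowest, but the Day 1 replicates stood far apart. Day 3 differed from Day 0 by a log2 fold change of -0.67 (SE 0.27, limma adjusted p = 0.0819), which was -0.35 relative to the median change, and was not called. However, without Day 1 replicate 1, without Day 1 replicate 2 and in a fit of Day 0 and Day 3 alone the adjusted p was 0.0146, 0.0138 and 0.0232. The ratio of Actg1 to Actb was 0.528 and 0.526 at Day 0, 0.676 and 0.860 at Day 1, 0.754 and 0.815 at Day 2, and 0.592 and 0.607 at Day 3. All 4 libraries of the middle days were above the 4 others in this ratio, which was described and not tested.

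Serum response factor (SRF) is a transcription factor whose coactivators are held back by free actin, and its known binding motif is the CArG box. The RefSeq promoter table (GRCm38.p6, 250 bases before to 50 after a start site) held 9 of the 10 members, with 11 promoters. A CArG box, which reads as the same motif on both strands, was found in 1 of those 11, that of Actg1, and in 535 of all 32851 promoters (1.63%). The stretch around it that no annotated exon covers is shown because Actg1 alone among the 9 members searched had the box. In the stretch (chr11:120348543-120348677, minus strand) the box is in capitals. It lies 90 to 81 bases before the RefSeq start site, which is inside the span of Actg1 given above.
Actg1 promoter: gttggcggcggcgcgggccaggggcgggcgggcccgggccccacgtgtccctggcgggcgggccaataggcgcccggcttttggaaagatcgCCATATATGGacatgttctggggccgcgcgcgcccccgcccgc
Among the promoters of an SRF list given further on, 6 of 15 held a box (Cnn2, Fhl2, Myl9, Srf and Vcl). A match describes the letters in this window and does not show that SRF binds there. The member missing from the promoter table was not searched and is not named here. Whether Actb was among the 9 searched is therefore not stated, and a box outside the window would not be found.

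Of the assembly genes, Wasf1 changed most. Wasf1 encodes WAVE1, a subunit of the complex that turns on Arp2/3, and lies on chromosome 10 (40883475 to 40938570, plus strand). Its FPKM was 86.9 and 94.9 at Day 0, 129 and 147 at Day 1, 100 and 91.6 at Day 2, and 50.7 and 45.4 at Day 3. Both Day 1 libraries were above all the others and both Day 3 libraries below them, with no overlap between Day 0 and Day 3. Wasf1 fell by 0.91 on the log2 scale from Day 0 to Day 3 (SE 0.13, limma adjusted p = 0.00134), which was -0.59 relative to the median change. It was lower in 2 of 2 replicates and kept its call under every alternative tried, each library left out included.

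Pfn1 encodes profilin 1, which carries monomers to growing filament ends (chromosome 11, 70651850 to 70654644, minus strand). Its FPKM was 356 and 360 at Day 0, 299 and 317 at Day 1, 237 and 301 at Day 2, and 236 and 224 at Day 3. Both Day 3 libraries were below all 6 earlier ones, if only just below replicate 1 of Day 2. Pfn1 fell by 0.63 on the log2 scale (SE 0.14, limma adjusted p = 0.00930), which was -0.32 relative to the median change, and was lower in 2 of 2 replicates. The call was lost with median ratio scaling (-0.35, adjusted p = 0.121), with quantile normalization (-0.26, 0.206) and without either Day 0 library (0.0541 and 0.0584).

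Arpc2 and Arpc3 encode subunits of the Arp2/3 complex, which starts branches on existing filaments (chromosome 1, 74236084 to 74268209, and chromosome 5, 122391878 to 122414184, both plus strand). Arpc2 ranged from 86.9 to 116 FPKM over the 8 libraries and Arpc3 from 92.3 to 154, and replicate 2 of Day 3 was the lowest library for both. Their log2 fold changes from Day 0 to Day 3 were -0.30 (SE 0.14, limma adjusted p = 0.119) and -0.36 (SE 0.18, adjusted p = 0.155). The change of Arpc3 was -0.15 without Day 3 replicate 2, -0.19 without Day 0 replicate 1 and -0.56 without Day 3 replicate 1. Neither gene was called, and relative to the median change they were at 0.02 and -0.04.

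Of the disassembly genes, Gsn was the only member called higher. Gsn encodes gelsolin, which severs filaments and caps their ends (chromosome 2, 35256380 to 35307892, plus strand). Its FPKM was 47.9 and 40.7 at Day 0, 30.7 and 19.8 at Day 1, 29.9 and 25.0 at Day 2, and 67.0 and 165 at Day 3. Both Day 3 libraries were above the other 6, and the 4 libraries of Day 1 and Day 2 were below both of Day 0. Gsn rose by 1.23 on the log2 scale from Day 0 to Day 3 (SE 0.38, limma adjusted p = 0.0339), which was 1.55 relative to the median change, and was higher in 2 of 2 replicates.

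The size of the rise in Gsn differed between replicates. The Day 3 level was 1.40 times that of Day 0 in replicate 1 and 4.06 times in replicate 2, a split chosen after seeing the data. These values match libraries by replicate number, which is an assumed pairing. Without Day 3 replicate 1 the log2 fold change was 1.88 (limma adjusted p = 0.00222). Without Day 3 replicate 2 it was 0.59 (adjusted p = 0.155), and the call was also lost without Day 0 replicate 1 (0.0887), Day 0 replicate 2 (0.141), Day 2 replicate 1 (0.0508) or Day 2 replicate 2 (0.0504). It was lost with no filter (0.0590), without a variance trend (0.0632) and in a fit of the days compared alone (0.0545), and kept under all 3 other scalings. Replicate 2 of Day 3 was also the library with the highest astrocyte sum (918 FPKM) and the highest level of Mbp (11945 FPKM). Other OL markers differed from Mbp, with Cldn11 higher in replicate 1 of Day 3 (2960 against 2771 FPKM) and Cnp highest in replicate 2 of Day 2 (2459). Astrocyte markers in replicate 2 were above those of replicate 1 from Day 0 on, and their sum in replicate 2 was 627 FPKM on Day 2. Gsn in replicate 2 was below replicate 1 on Day 0, Day 1 and Day 2, and above it on Day 3. The part of other cells in the Day 3 level of Gsn was not tested. About 66 fragments lay behind the lowest Gsn value (Day 1 replicate 2), for a counting error near 12.3%.

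**Figure D2:**
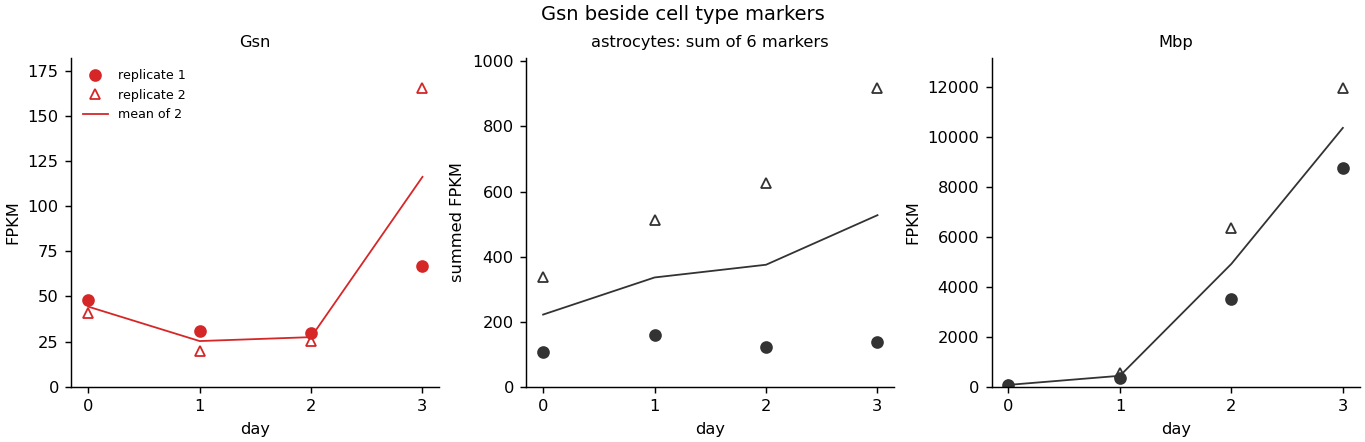
FPKM of Gsn (left), the summed FPKM of 6 astrocyte markers (middle) and FPKM of the OL marker Mbp (right) against the day, all from 0. Filled circles are replicate 1, open triangles replicate 2, and lines the means of the 2. On Day 3 the Gsn replicates were at 67.0 and 165 FPKM and the astrocyte sums, apart on all 4 days, at 136 and 918.

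Cfl1 and Cfl2 encode the cofilins, which sever and depolymerize old filaments (chromosome 19, 5490455 to 5495201, plus strand, and chromosome 12, 54858809 to 54862877, minus strand). Their coding sequences of 498 bases share 356 bases (71.5%). Kinases of the LIMK and TESK families are known to inactivate both proteins close to their first residues, so the opening 60 coding bases are shown, with the 16 that differ in capitals.
Cfl1: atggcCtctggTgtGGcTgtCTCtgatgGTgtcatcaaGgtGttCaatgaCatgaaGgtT
Cfl2: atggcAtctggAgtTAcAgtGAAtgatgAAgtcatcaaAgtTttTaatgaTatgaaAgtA
Of the 75-base stretches of the Cfl1 transcript, 3.6% were shared with 1 other gene, and for Cfl2 none was. Exons of Snx32 and 1700081N11Rik overlap Cfl1 and Cfl2 on the opposite strand. The kit marks strand, but whether counting used it is not given in the sources used here.

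Cfl1 FPKM was 1609 and 1540 at Day 0, 1354 and 1534 at Day 1, 1360 and 1442 at Day 2, and 1219 and 1067 at Day 3. Both Day 0 libraries were the highest and both Day 3 libraries the lowest, over a range of only 1.51 times. Cfl1 fell by 0.47 on the log2 scale (SE 0.15, limma adjusted p = 0.0423), which was -0.15 relative to the median change, and was lower in 2 of 2 replicates. The call was lost with equal sum scaling (-0.31, adjusted p = 0.138), median ratio scaling (-0.18, 0.415), no filter (0.0955), no variance trend (0.0786), and without Day 0 replicate 1 (0.188), Day 0 replicate 2 (0.139), Day 2 replicate 1 (0.0692), Day 2 replicate 2 (0.0689) or Day 3 replicate 2 (0.155). Cfl2 was at 79.0 and 92.9 FPKM on Day 0 and at 88.9 and 89.2 on Day 3, and its Day 3 values lay between those of Day 0. Its log2 fold change was 0.06 (SE 0.20, limma adjusted p = 0.843), or 0.37 relative to the median change and 0.34 with median ratio scaling (adjusted p = 0.232), with -0.06 without Day 0 replicate 1 and 0.17 without Day 0 replicate 2.

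Tmsb4x encodes thymosin beta 4, which binds free monomers and keeps them from filaments (chromosome X, 167207093 to 167209315, minus strand). Its FPKM was 661 and 656 at Day 0, 630 and 720 at Day 1, 544 and 521 at Day 2, and 598 and 863 at Day 3. Day 2 was lowest in both replicates, and the 2 values of Day 3 lay on either side of Day 0. The log2 fold change was 0.13 (SE 0.18, limma adjusted p = 0.616), or 0.44 relative to the median change and 0.41 with median ratio scaling (adjusted p = 0.150), with 0.39 without Day 3 replicate 1, -0.14 without Day 3 replicate 2 and 0.62 with quantile normalization (adjusted p = 0.0236). Its ratio to the sum of Actb and Actg1 was 0.197 and 0.187 at Day 0, 0.188 and 0.135 at Day 1, 0.155 and 0.143 at Day 2, and 0.264 and 0.496 at Day 3. Both Day 3 ratios were above the other 6, and replicate 2 was well above replicate 1 there.

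**Figure D3:**
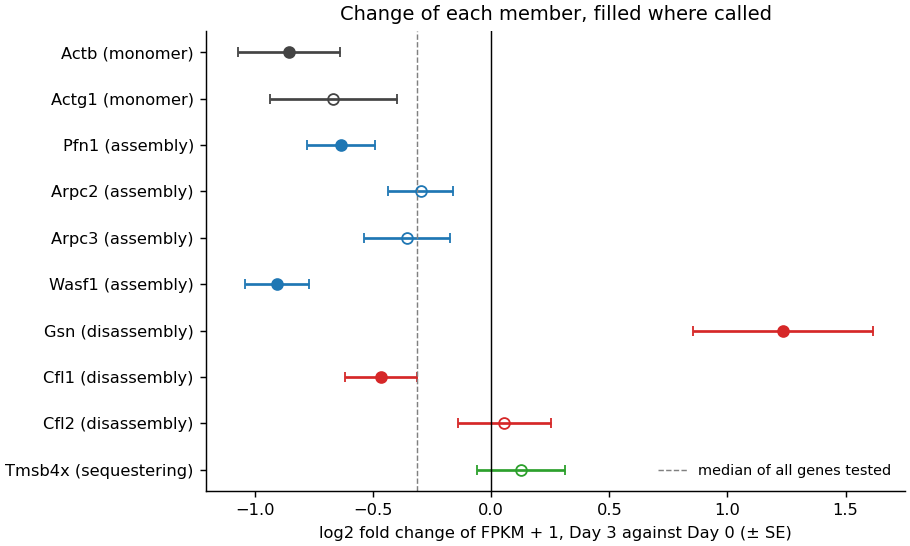
Log2 fold change of FPKM + 1 from Day 0 to Day 3 for each member (horizontal axis), with bars of 1 SE from the limma fit. Filled points were called at an adjusted p under 0.05, and the dashed line is the median of all genes tested (-0.31). Gsn, at 1.23, is the only called member to the right of 0.

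Assembly and disassembly genes were contrasted by role. Of the 4 assembly genes, limma called 2 lower (Wasf1 and Pfn1) and 0 higher, with the same counts at an unadjusted p under 0.05 and a median log2 fold change of -0.49. Of the 3 disassembly genes, 1 was called higher (Gsn) and 1 lower (Cfl1), beside 12% of all genes higher and 26.3% lower. Their median of 0.06 is the value of Cfl2, which was not called. With median ratio scaling the counts were 1 assembly gene lower, and 1 disassembly gene higher and 0 lower (0 at an unadjusted p), with medians of -0.21 and 0.34. The difference between the 2 roles was not tested.

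The ratio of the summed disassembly genes (Gsn, Cfl1 and Cfl2) to the summed assembly genes (Pfn1, Arpc2, Arpc3 and Wasf1) was 2.44 and 2.44 at Day 0, 2.18 and 2.31 at Day 1, 2.47 and 2.51 at Day 2, and 2.71 and 2.94 at Day 3. Both Day 3 libraries were the highest and both Day 1 libraries the lowest. Cfl1 makes up most of the disassembly sum, which was 1736 and 1674 FPKM at Day 0 and 1375 and 1321 at Day 3. The assembly sum was 712 and 687 FPKM at Day 0 and 507 and 449 at Day 3. Both sums were thus lower on Day 3 than on Day 0. The ratio of Gsn to Pfn1 was 0.135 and 0.113 at Day 0, 0.103 and 0.0625 at Day 1, 0.126 and 0.0831 at Day 2, and 0.284 and 0.737 at Day 3. The ratio of Gsn to Cfl1 was 0.0298 and 0.0265 at Day 0, 0.0227 and 0.0129 at Day 1, 0.0220 and 0.0174 at Day 2, and 0.0550 and 0.155 at Day 3. That of Cfl2 to Cfl1 was 0.0491 and 0.0603 at Day 0, 0.0588 and 0.0783 at Day 1, 0.0598 and 0.0496 at Day 2, and 0.0730 and 0.0836 at Day 3, so replicate 2 of Day 1 was above replicate 1 of Day 3. In all 4 ratios both Day 3 libraries were above both Day 0 libraries. A ratio within a library does not depend on its scale, and none of them was tested.

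**Figure D4:**
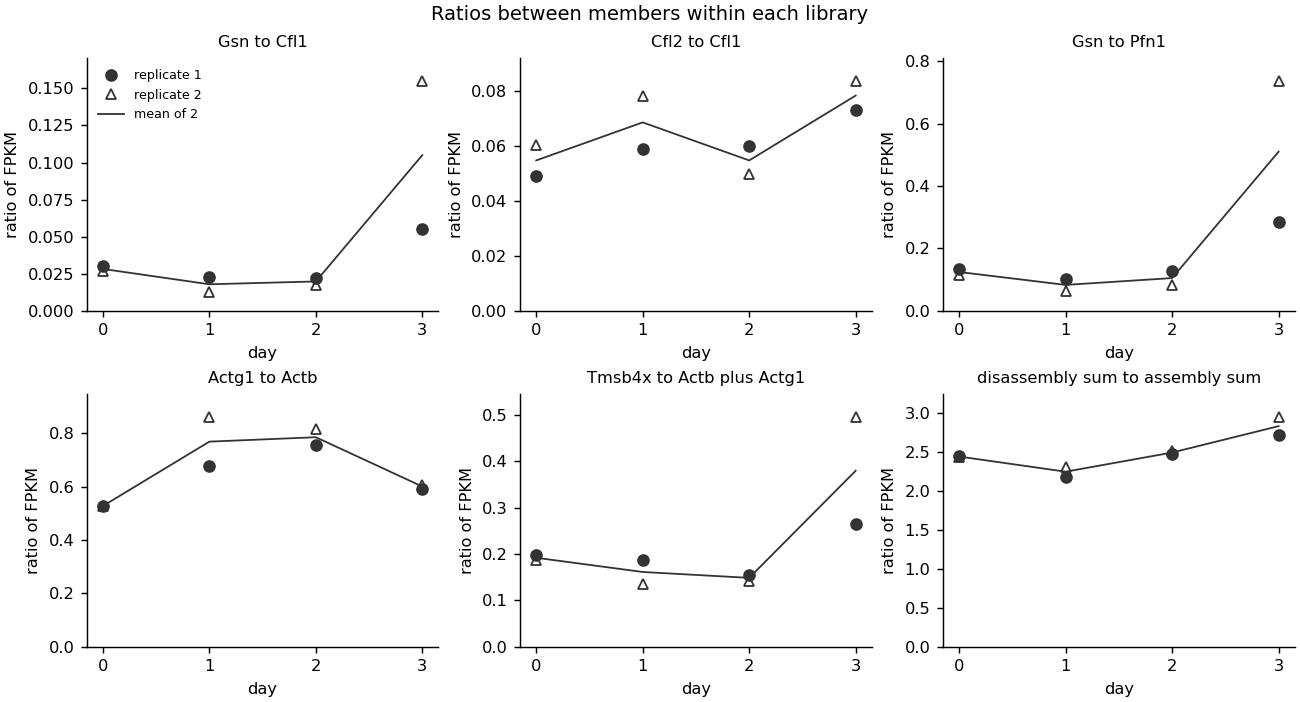
Ratios of FPKM between members within each library (vertical axes, from 0) against the day. Filled circles are replicate 1, open triangles replicate 2, and lines the means of the 2. The ratio of summed disassembly to summed assembly genes was 2.71 and 2.94 on Day 3, above the other 6 libraries. Both sums were lower on Day 3 than on Day 0.

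The steps between days place these changes in time. From Day 0 to Day 1, 5.04% of all genes were called higher (615) and 7.56% lower (923), and of the members only Wasf1 was called, as higher (log2 fold change 0.60, SE 0.13, limma adjusted p = 0.0237). Wasf1 lost that call without either Day 0 library (adjusted p 0.165 and 0.0997), without Day 1 replicate 2 (0.137) and without a variance trend (0.0863). The change of Actg1 was 0.63 (adjusted p = 0.179), with 1.06 (adjusted p = 0.0157) without Day 1 replicate 1, 0.19 (adjusted p = 0.645) without Day 1 replicate 2 and 0.94 (adjusted p = 0.0187) with quantile normalization. That of Gsn was -0.81 (adjusted p = 0.217), with -0.51 (adjusted p = 0.605) without Day 1 replicate 2 and -1.12 (adjusted p = 0.188) without Day 1 replicate 1. The step shares its Day 0 libraries with the comparison of Day 3 and Day 0. Without Day 0 replicate 1, 257 genes were higher and 308 lower, without Day 0 replicate 2, 246 and 333, and without Day 1 replicate 2, 278 and 449. With quantile normalization 50.1% of called genes were higher, against 40.0%, and Actb was called lower (-0.65, adjusted p = 0.0423). With no rescaling the change of Actb was 0.09 (adjusted p = 0.835), so its direction turned.

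From Day 1 to Day 2, 2.16% of genes were called higher (264) and 1.73% lower (211), and limma called 0 of the 10 members in either direction, with 1 (Wasf1) at an unadjusted p under 0.05. With replicates fitted as a block 436 genes were lower (367 higher, or 45.7% of called genes), and with median ratio scaling 371 were higher and 108 lower. The share of called genes that were higher was then 77.5%, against 55.6% with no rescaling, and 69.2% with quantile normalization, which called Actb lower (-0.89, adjusted p = 0.0329, against -0.25 and 0.525). Genes higher and lower numbered 154 and 70 without Day 0 replicate 1, 154 and 72 without Day 0 replicate 2, 56 and 9 without Day 1 replicate 1, 146 and 69 without Day 1 replicate 2, 142 and 105 without Day 2 replicate 1, and 11 and 0 without Day 2 replicate 2. The log2 fold change of Wasf1 was -0.52 (adjusted p = 0.0752), or -0.33 relative to the median change, which was -0.19 here.

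From Day 2 to Day 3, 0.246% of genes were called higher (30) and 0.0491% lower (6), and 1 member was among the 6, Wasf1 (log2 fold change -0.98, SE 0.13, limma adjusted p = 0.0369). Wasf1 lost that call with a pseudocount of 0.1 (0.0519), with no filter (0.0732), without a variance trend (0.117), in a fit of the days compared (0.0802), and without either Day 0 library (0.0825 and 0.0823), either Day 2 library (0.289 and 0.115) or Day 3 replicate 2 (0.250). With the replicate block 119 genes were higher and 44 lower (73.0% higher, against 83.3%). Without either Day 0 library, either Day 2 library or Day 3 replicate 2, limma called 0 genes in either direction, while 1773 genes had an unadjusted p under 0.05 with all libraries. Without Day 3 replicate 1, 79 were higher and 170 lower. The changes of Gsn (1.91, adjusted p = 0.0867), Actg1 (-1.08, adjusted p = 0.124) and Actb (-0.69, adjusted p = 0.186) were not called, although Gsn was at 2.55 (adjusted p = 0.0134) without Day 3 replicate 1, at 1.26 (adjusted p = 0.327) without Day 3 replicate 2, and Actg1 at an adjusted p of 0.0498 without Day 1 replicate 2.

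The genes whose profiles over the 8 libraries were most like that of Gsn were Fam214a, Daam1 and Pvrl1, among 6481 genes with a mean of at least 10 FPKM. Their root mean square differences from Gsn on the log2 scale were 0.257, 0.283 and 0.306, against a median of 1.00 for all candidates. Daam1, a formin that elongates filaments, was at 20.4 and 19.8 FPKM on Day 0 and at 47.5 and 80.5 on Day 3, and the 4 libraries between ranged from 15.1 to 17.7. The genes most like Wasf1 were Grik5 and Dlg4, with differences of 0.116 and 0.123 against a median of 0.577. Grik5, a kainate receptor subunit, went from 38.7 and 42.0 FPKM on Day 0 through 62.2 and 63.6 on Day 1 to 21.3 and 17.7 on Day 3.

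The rest of the actin pathway was described with 100 other genes in 8 lists, of which 84 were tested. From Day 0 to Day 3, 14 were called higher and 20 lower, 50 were not called and 16 were too low to test, and the median log2 fold change was -0.12 beside -0.31 for all genes. That was 16.7% of tested pathway genes higher and 23.8% lower, beside 12% and 26.3% of all genes. With median ratio scaling 21 were higher and 13 lower (25.0% and 15.5%, beside 16.9% and 17.6% of all genes), with a median of 0.11 beside -0.06. The most abundant gene of a list is the 1 with the highest mean FPKM over the 8 libraries. Each pathway gene named here as higher or lower between those days was so in 2 of 2 replicates. Of the 5 muscle and minor actin isoforms, Acta2 alone was tested and its log2 fold change was -0.06 (limma adjusted p = 0.955), with 0.03 under median ratio scaling, 0.12 under quantile normalization, 0.56 without Day 0 replicate 2, 0.50 without Day 3 replicate 1, -0.69 without Day 0 replicate 1 and -0.62 without Day 3 replicate 2. It was listed at 0 in all 4 libraries of replicate 1. Its highest value was 2.20 FPKM.

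The first lists hold genes that start or extend filaments, and the counts of all lists stand beside 12% of all genes called higher and 26.3% lower. Of 12 tested partners and relatives of Wasf1, 1 was higher (Wipf3, log2 fold change 1.97, SE 0.43, limma adjusted p = 0.00818) and 1 lower (Abi2, a WAVE complex subunit, -0.87, SE 0.18, adjusted p = 0.00694), with a median of 0.13. With median ratio scaling 2 were higher and the median was 0.42. Wipf3 stood at 0.159 and 0.194 FPKM on Day 0 and 2.43 and 5.21 on Day 3, with a log2 fold change of 3.73 at a pseudocount of 0.1. Without Day 3 replicate 2 Wipf3 was no longer called (adjusted p = 0.0581), nor Abi2 without Day 0 replicate 2 (0.0582). Cyfip2, another WAVE complex subunit and the most abundant of the list, was at 135 and 151 FPKM at Day 0, 346 and 403 at Day 1, 384 and 333 at Day 2, and 233 and 135 at Day 3. It was called higher from Day 0 to Day 1 (log2 fold change 1.38, limma adjusted p = 0.00707), as Wasf1 was, but lost that call without Day 0 replicate 1 (0.0636) or Day 1 replicate 2 (0.0522). From Day 0 to Day 3 it was not called (0.31, adjusted p = 0.328), with -0.08 without Day 3 replicate 1 and 0.70 (adjusted p = 0.0233) without Day 3 replicate 2.

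Of the 8 other Arp2/3 subunits tested, limma called 2 higher and 0 lower (3 and 0 at an unadjusted p under 0.05), with a median of 0.20, and 4 higher with median ratio scaling, with a median of 0.49. The most abundant by that mean, Arpc1b, was at 256 and 177 FPKM on Day 0 and at 523 and 450 on Day 3, and rose by 1.18 on the log2 scale (SE 0.21, limma adjusted p = 0.00321). Arpc1a, the related subunit, had the higher mean on Day 0 (223 against 216), was chosen after its value was seen and rose by 0.84 (adjusted p = 0.00292). Arpc2 and Arpc3, the 2 subunits among the members, were not called in that comparison.

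Of 15 tested formins, profilins and Ena/VASP proteins, 3 were higher and 6 lower, with a median of -0.52. With each of the 3 other scalings 4 were lower, with medians of -0.41, -0.28 and -0.17. The largest rises were those of the formins Fmnl2 (32.9 and 30.2 FPKM on Day 0, 177 and 192 on Day 3, log2 fold change 2.51, limma adjusted p = 8.42e-05) and Daam1 (1.58, adjusted p = 0.00132). The largest falls were those of Diaph3, a formin (-2.55, adjusted p = 0.00110), and Enah, which protects growing ends from capping (61.5 and 60.3 FPKM on Day 0, 18.8 and 16.5 on Day 3, log2 fold change -1.73, adjusted p = 0.000638). Pfn2, the most abundant of the list by mean over the 8 libraries but below Fmnl2 on Day 3, had a log2 fold change of -0.02 (adjusted p = 0.960), which was above 0 with all 3 other scalings (0.14, 0.27 and 0.02) and without Day 3 replicate 2 (0.18), and was -0.21 without Day 3 replicate 1.

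Of 13 tested severing, depolymerizing and debranching factors, 5 were higher and 3 lower, with a median of 0.28. With median ratio scaling 7 were higher and 2 lower, with a median of 0.52. The largest rises were in Coro2b, a coronin (1.99 and 1.81 FPKM on Day 0, 42.7 and 81.8 on Day 3, log2 fold change 4.38, SE 0.54, limma adjusted p = 0.000566), and Mical3, of a family of enzymes that oxidize actin (8.92 and 8.73 FPKM on Day 0, 67.4 and 80.2 on Day 3, log2 fold change 2.92, adjusted p = 7.75e-05). The largest falls were in Mical1, of the same family (-2.17, adjusted p = 0.00187), and Coro1a, another coronin (-2.04, adjusted p = 0.0130). Coro1a lost its call without Day 0 replicate 1 (0.0538), Day 0 replicate 2 (0.0706) or Day 3 replicate 1 (0.0640). Dstn, which encodes destrin, a relative of the cofilins and the most abundant of the list, was at 164 and 163 FPKM on Day 0 and at 269 and 251 on Day 3, and rose by 0.67 (SE 0.13, adjusted p = 0.00437). Among the 3 genes of the cofilin family, Dstn was thus called higher, Cfl1 lower and Cfl2 neither.

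Of 10 tested monomer binding and capping factors, 2 were higher (Tmod1 and Tmod2, which cap slow-growing ends, log2 fold changes 1.86 and 1.12, limma adjusted p 0.0139 and 0.00110) and 1 lower. Tmod1 lost its call with a pseudocount of 0.1 (0.113) and without Day 0 replicate 1 (0.0751), Day 0 replicate 2 (0.0616) or Day 3 replicate 2 (1.18, 0.0809). The 1 that fell was Tmsb10, a relative of Tmsb4x and the most abundant of the list. Tmsb10 was at 626 and 680 FPKM on Day 0 and at 321 and 223 on Day 3 (log2 fold change -1.28, SE 0.18, adjusted p = 0.00113, or -0.66 and 0.0483 with quantile normalization). The median of the list was 0.03. With median ratio scaling 4 were higher and the median was 0.31.

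Of 8 kinases and phosphatases of cofilin, 1 was higher and 1 lower, with a median of -0.31, or -0.05 with median ratio scaling and 0.12 with quantile normalization. Both were TESK kinases, Tesk2 (log2 fold change 1.64, limma adjusted p = 0.0148) and Tesk1 (-0.73, adjusted p = 0.0339). Tesk2 lost its call without Day 0 replicate 2 (0.0978) or Day 3 replicate 2 (0.0765), and Tesk1 with equal sum scaling (0.0735), median ratio scaling (-0.47, 0.147), quantile normalization (-0.42, 0.190) and without Day 0 replicate 1 (0.131), Day 0 replicate 2 (0.122) or Day 3 replicate 2 (0.158). Pdxp, a cofilin phosphatase and the most abundant of the list by mean over the 8 libraries, had a Day 3 mean of 9.93 FPKM, below those of Limk2 and Tesk2. It was not called (-0.68, adjusted p = 0.0782), with -1.03 (adjusted p = 0.0364) without Day 0 replicate 1 and -0.33 without Day 0 replicate 2.

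Of 17 tested genes of the SRF list, which holds SRF, its coactivators and known targets, limma called 8 lower and 0 higher (9 and 0 at an unadjusted p under 0.05), with a median of -0.87, while 26.3% of all genes were lower. With median ratio scaling 5 were lower, beside 17.6% of all genes, and with the 3 other scalings the median stayed below 0. The largest falls were in Tpm1, a tropomyosin that lies along filaments (150 and 155 FPKM at Day 0, 75.4 and 93.6 at Day 1, 34.3 and 41.1 at Day 2, 22.4 and 21.7 at Day 3, log2 fold change -2.74, SE 0.15, adjusted p = 4.78e-05), and Tagln2 (-2.66, adjusted p = 0.00134). Tpm1 fell by 0.85 on the log2 scale from Day 0 to Day 1 (adjusted p = 0.00889) and fell by 1.14 from Day 1 to Day 2 (adjusted p = 0.0124). The earlier call was lost without Day 0 replicate 1 (0.0671) or Day 0 replicate 2 (0.0772), and the later without Day 2 replicate 2 (0.0702) or a variance trend (0.0522). Cnn3, a calponin and the most abundant of the list, fell by 0.65 (adjusted p = 0.00481), a call lost with median ratio scaling (-0.37, adjusted p = 0.0730). Actb, which is also a known target of SRF, was not counted in the list. It was called lower from Day 0 to Day 3, but not with median ratio scaling (limma adjusted p = 0.0753). Actg1, whose promoter held a CArG box, was not called in that comparison (limma adjusted p = 0.0819).

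**Figure D5:**
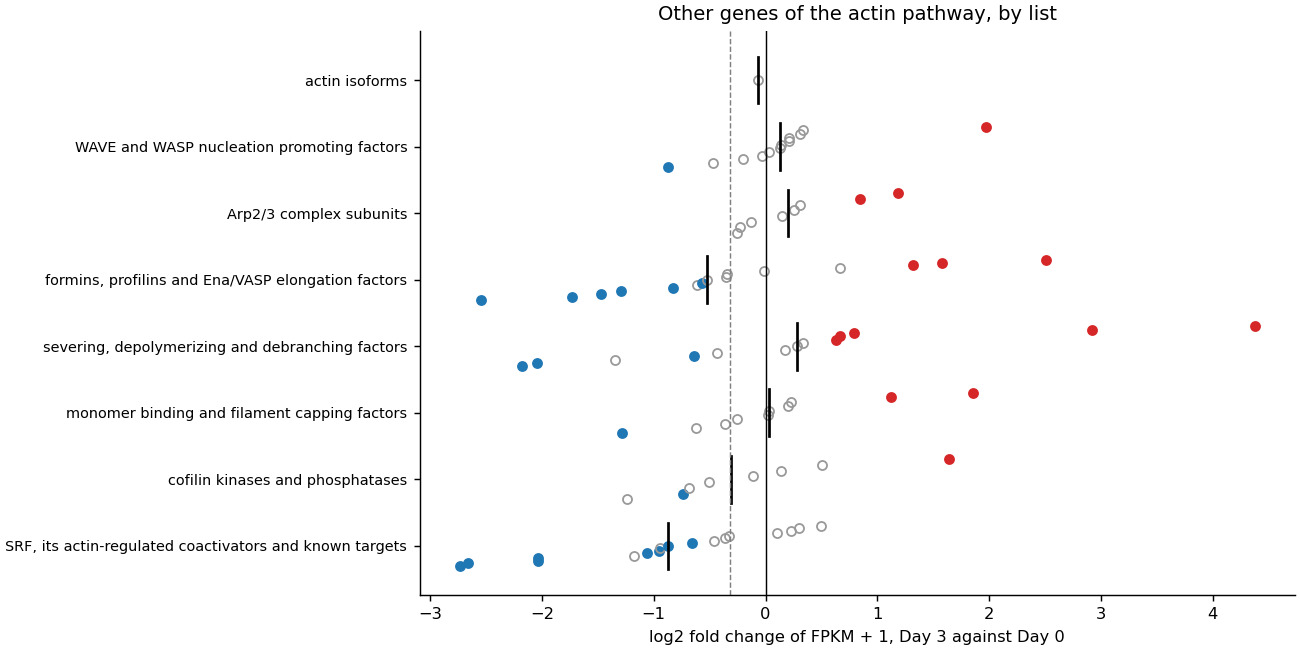
Log2 fold change of FPKM + 1 from Day 0 to Day 3 (horizontal axis) of the 84 tested pathway genes other than the members, by list. Red points were called higher, blue lower and open grey points neither, black ticks are list medians, and the dashed line is the median of all genes tested (-0.31). The SRF list had a median of -0.87, and 8 of its 17 tested genes were called lower, beside 26.3% of all genes.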

How the data were processed

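The authors sequenced stranded mRNA libraries as 75-nt paired ends on a MiSeq, used OmicSoft ArrayStudio on them, and deposited a table of FPKM per gene and library. The submitters' processing notes name the build mm10, and no further normalization between libraries is stated. Their methods name DESeq2, which needs counts and was not used here.

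Tests used limma 3.58.1 in R 4.3.3 (lmFit, eBayes with a trend) on log2(FPKM + 1), over the 8 libraries with day as the factor, for 12208 genes at 1 FPKM or more in at least 2 libraries. The fit was also run on simulated data with independent noise in each library, which does not mimic the correlated replicate differences described below. Levels, ratios and sequences were handled in Python 3.11.15. P-values rest on the spread between the 2 replicates of a day, pooled over the 4 days and drawn towards a trend over all genes.

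Named genes were the 10 members, the largest rise and fall of each list among called genes (2 of each in lists of over 10 genes), each list's most abundant gene by mean over the 8 libraries, and the profiles nearest Gsn and Wasf1. A few results that this rule or the lists would give are not reported here. No column of values was left unmapped. Members and lists were chosen with earlier results of these data known.

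Differences between replicates correlated across genes between every 2 days (r from 0.16 to 0.29), so the replicate number in the labels was also fitted as a block. Other alternatives were a pseudocount of 0.1, no filter, a filter at 10 FPKM, 3 other scalings, no trend, only the days compared, and each library left out.

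Depth was not given. Low FPKM values of genes with 1 transcript came closest to whole fragments at 960000 to 1530000 fragments per library, where 50.3% to 57.9% lay within 0.03 of a whole number.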

Additional observations from a re-analysis of the deposited data

How the results depend on the processing

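The spread rests on 2 replicates a day, and leaving out a library leaves a day with 1, which is assumed to vary like the others. Depth of about 960000 to 1530000 fragments limits genes at low FPKM. Over 680 values of the members under alternatives, 38 calls were lost, 10 were gained and 16 signs changed. None of the 16 values was called with all libraries and no rescaling, and 1 was called after its sign changed (Actb, Day 1 against Day 0, 0.09 to -0.65 with quantile normalization). The others were of Actb, Actg1, Arpc2, Arpc3, Gsn, Cfl1, Cfl2 and Tmsb4x. The cause was not tested for the changes given here, apart from fewer libraries where 1 was left out.

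For Day 3 against Day 0, members called higher numbered 0 with no filter, 0 without a variance trend, 0 with only the days compared and 2 with quantile normalization, and members called lower numbered 1 with median ratio scaling. For Day 1 against Day 0, members higher numbered 2 with quantile normalization and 0 without a trend, and members lower 1 with quantile normalization.

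For Day 2 against Day 1, genes higher numbered 154 with no filter, 82 without a trend and 144 with only the days compared. Genes lower numbered 93 with no filter, 108 with median ratio scaling, 131 with quantile normalization, 39 without a trend and 75 with only the days compared, and members lower 1 with quantile normalization. For Day 3 against Day 2, genes higher numbered 4 with a pseudocount of 0.1, 0 with no filter, 0 without a trend and 5 with only the days compared, and genes lower 0, 0 and 1 with the last 3 of these. Members lower numbered 0 under all 4.

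With the replicate block, genes lower numbered 436 for Day 2 against Day 1, and for Day 3 against Day 2 genes higher numbered 119 and lower 44. The block changed no call of a member.

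Leaving out 1 library at a time, genes higher ranged from 972 to 1444 and genes lower from 1729 to 3124 for Day 3 against Day 0, with members higher from 0 to 1 and lower from 1 to 5. For Day 1 against Day 0 the ranges were 246 to 643 higher and 308 to 982 lower, with members higher from 0 to 2. For Day 2 against Day 1 they were 11 to 272 and 0 to 302. For Day 3 against Day 2 they were 0 to 79 and 0 to 170, with members higher from 0 to 1 and lower from 0 to 2.

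Directions also turned for Day 3 against Day 0. The log2 fold change of Acta2 was 0.0279 with median ratio scaling and 0.12 with quantile normalization, and that of Pfn2 was 0.14 with equal sum scaling, 0.27 with median ratio scaling and 0.0184 with quantile normalization. Without 1 library at a time it ranged from -0.0608 to 0.171 for Cfl2, -0.14 to 0.39 for Tmsb4x, -0.69 to 0.56 for Acta2, -0.0783 to 0.702 for Cyfip2 and -0.21 to 0.18 for Pfn2.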
